A study of Sus scrofa with 12 samples.

Results

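The bone morphogenetic protein (BMP) receptors and the oocyte growth factors were examined in the ovaries of 12 pregnant sows. The 8 genes listed were the type I receptors BMPR1A, BMPR1B and ACVR1, the type II receptors BMPR2, ACVR2A and ACVR2B, and the growth factors GDF9 and BMP15. Members were the probe sets of the porcine array whose only gene symbol was 1 of these names. That gave 11 of the 24123 probe sets, for 7 genes, and BMPR2 was not analysed here because no probe set used here carried its symbol. The sows belonged to an F2 cross of the Iberian and Meishan pig breeds and were killed on day 30 of pregnancy. The labels put 6 sows in the high and 6 in the low prolificacy group (the high and low groups below) by EBV, the usual abbreviation of estimated breeding value, so the groups rest on a breeding value and not on a treatment. Every sow gave 1 Affymetrix array, described as an average of the left and the right ovary. Values are log2 expression levels as the authors deposited them, made with GCRMA, and the number of sows limits the precision of every difference.

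BMPs are secreted ligands that assemble pairs of type I and type II receptor kinases on the cell surface. The type II kinase activates the type I kinase, which phosphorylates SMAD1, SMAD5 and SMAD9, and these enter the nucleus with SMAD4. GDF9 and BMP15 are ligands of the same family that the oocyte releases to granulosa cells around it. In sheep, inherited changes in BMPR1B, BMP15 and GDF9 alter the number of eggs shed at ovulation.

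Array medians spanned 4.81 to 4.97. High 2 and high 3 (sows are named by group and animal number) had the lowest mean rank correlation with the other sows, at 0.943 and 0.937, while the rest lay between 0.952 and 0.966. All 7 luteal markers listed were tested, and none was under 12.24 in any sow. CYP11A1, the enzyme that starts progesterone synthesis, averaged 13.45 ± 0.46 in the high group and 13.64 ± 0.15 in the low group (SD, n = 6 each, as throughout). Oocyte markers read low on the array. Of 13 listed, 5 had a probe set and only ZP4, a protein of the egg coat, reached 4 in at least 6 sows. The germ cell helicase DDX4 stayed at or under 2.31 and the egg coat protein ZP2 at or under 1.99 in all sows. The actin control read higher at its 3′ than at its 5′ end, and a larger difference is usually read as less intact RNA. This measure rests on control names that were moved by 21 places, as the deposited names of that block did not match their values. The difference ran from 1.95 to 3.23 in the high group and from 1.97 to 2.35 in the low group. It averaged 2.59 ± 0.45 in the high group and 2.12 ± 0.13 in the low group. High 2, high 4, high 5 and high 6 lay above every low-group sow, so this measure is partly confounded with prolificacy group.

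None of the receptors and growth factors measured passed the test for a difference by prolificacy. A probe set was tested where it exceeded 4 in at least 6 sows, which kept 7 of the 11, for BMPR1A, BMPR1B, ACVR1 and GDF9. In limma's fit over all 13390 tested probe sets, with Benjamini-Hochberg adjustment, 0 of the 7 passed an adjusted p of 0.05, where 0% of all tested probe sets did. At an unadjusted p under 0.05 there were also 0 of the 7, where 5.64% of all did (2.26% higher and 3.38% lower in the high group). Their adjusted p ran from 0.931 to 0.997 in limma. The high group mean was the higher in 4 of the 7 and the lower in 3, against 47.6% higher among all tested. The values of the groups overlapped in all 7, and 0.471% of all tested probe sets had none overlapping.

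BMPR1B, a type I receptor found on granulosa cells and oocytes in several mammals, varied more between sows than the other members tested. Its probe sets are called S1, S2 and S3 here, after the ends of their names. S3 ran from 7.95 over a median of 10.01 to 11.27 in the high group. In the low group it ran from 8.60 over 10.05 to 10.70. High 2, high 4 and high 5 stood between 11.12 and 11.27, above every low-group sow. High 1, high 3 and high 6 stood between 7.95 and 8.91, with no high-group sow in between, while 5 low-group sows filled that gap. Whether the spread itself differed between the groups was not tested. In whole ovary, fewer cells of a type and less RNA per cell cannot be told apart.

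The S2 and S1 probe sets ordered the sows in nearly the same way. S2 ran from 6.08 over 8.07 to 10.02 in the high group and from 6.68 over 8.43 to 9.56 in the low group. S1 ran from 3.70 over 5.26 to 7.24 in the high group and from 4.56 over 5.72 to 7.14 in the low group. In each of the 3 probe sets high 2 was the highest and high 3 the lowest of the 12 sows. Pairs of them correlated across the sows at r = 0.936, 0.97 and 0.984, where the median over 2090 pairs of tested probe sets of 1 gene was 0.606. The distance between the highest and lowest sow came to 9.98-fold, 15.4-fold and 11.6-fold in S3, S2 and S1. Their SD over all sows, from 1.14 to 1.36, was larger than that of 98.5% to 99.3% of tested probe sets.

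**Figure D1:**
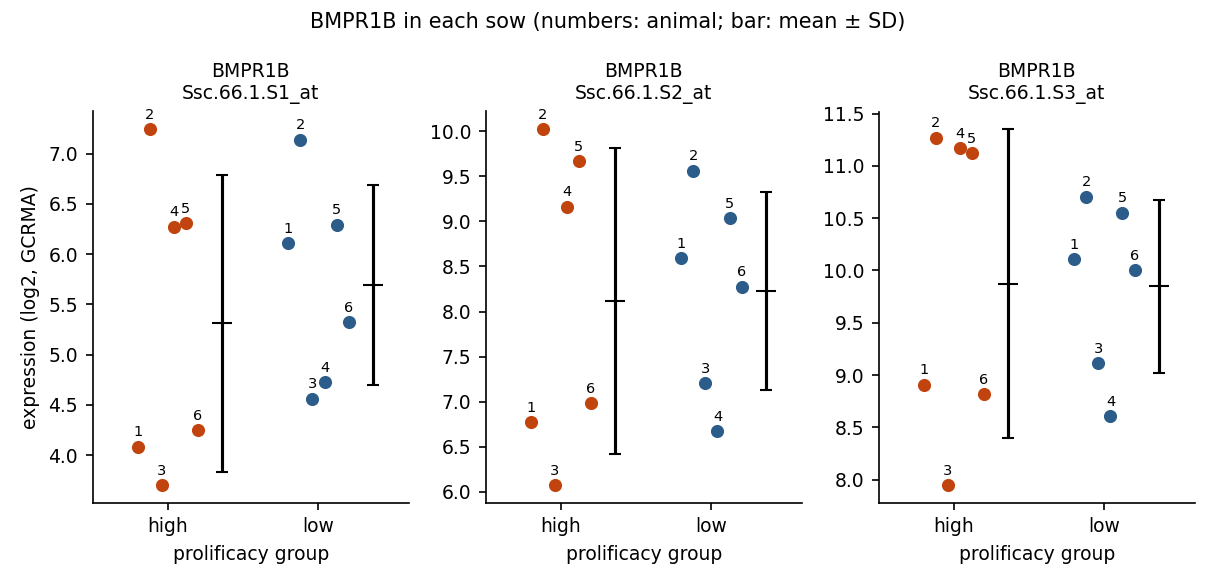
Log2 expression of the 3 BMPR1B probe sets (vertical axis, a separate scale in each panel) in each sow of the high and low prolificacy groups; points carry the animal number and bars are the mean ± SD (n = 6 each). High sows 2, 4 and 5 stand apart from high sows 1, 3 and 6, and most low-group sows lie between these clusters.

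This spread left the group difference of BMPR1B poorly bounded. S3 averaged 9.87 ± 1.48 in the high group and 9.85 ± 0.83 in the low group, a log2 difference of 0.02 with a 95% interval from -1.32 to 1.37. S2 averaged 8.11 ± 1.70 and 8.22 ± 1.11 in the high and low groups, a difference of -0.11 (-1.71 to 1.49). S1 averaged 5.31 ± 1.47 and 5.69 ± 1.0, a difference of -0.38 (-1.79 to 1.03). The intervals therefore hold changes of more than 2-fold either way, and the limma adjusted p was 0.997, 0.991 and 0.976 in that order. With 1 sow left out the difference of S3 ran from -0.25 to 0.41, and it was negative without high 2, high 4, high 5, low 3 or low 4. That of S2 ran from -0.49 to 0.30 and was positive without high 1, high 3, high 6, low 2 or low 5. That of S1 was negative without any 1 sow, from -0.77 without high 2 to -0.06 without high 3, and under the 11 other alternatives run on it.

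**Figure D2:**
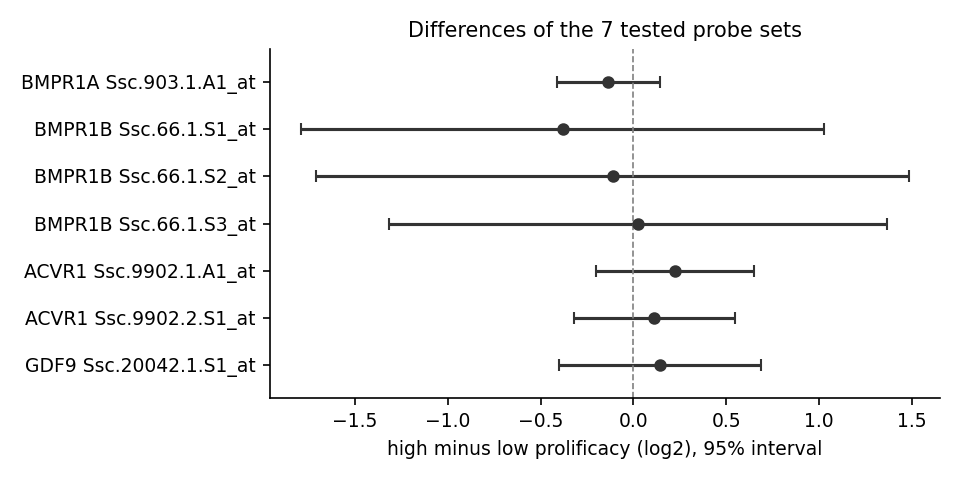
Difference between the high and low groups on the log2 scale (horizontal axis; points, with 95% intervals of limma's fit as bars) for the 7 tested probe sets. Every interval includes 0, and those of BMPR1B are the widest, spanning 2.68 to 3.19.

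Of the 4 member genes tested against the actin difference, BMPR1B and BMPR1A passed by rho and none by r. These relations were added after the data were seen and were adjusted over the 4 genes alone. Their adjusted p therefore cannot be set beside those of the 38 relations below. For BMPR1B over the 12 sows r was 0.629 (permutation p = 0.0265, adjusted p = 0.106 over the 4 genes) and rho was 0.706 (permutation p = 0.0127, adjusted p = 0.0391). Without high 2 and high 4, the sows farthest from the median of that difference, r was 0.362, and within groups it was 0.849 in the high group and 0.544 in the low group. BMPR1A ran the other way, at r = -0.457 (permutation p = 0.138, adjusted p = 0.225) and rho = -0.671 (permutation p = 0.0195, adjusted p = 0.0391), with r = -0.639 without high 2 and high 4. Within groups its r was -0.323 in the high group and -0.534 in the low group. GDF9 gave r = -0.424 (permutation p = 0.169, adjusted p = 0.225), with -0.736 within the high group and -0.047 within the low group, and ACVR1 gave 0.049 (permutation p = 0.881). With the actin difference as a covariate, BMPR1B differed by -1.30, -1.62 and -1.74 in S3, S2 and S1 and GDF9 by 0.59. These 4 had an unadjusted p under 0.05 in that fit, as did 16.3% of all tested probe sets, and the lowest limma adjusted p among them was 0.203. Since the actin difference was higher on average in the high group, that fit cannot fully separate it from prolificacy. The part of RNA integrity in the values of these genes was not tested further.

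BMPR1A, the more widely expressed type I receptor for BMP2 and BMP4, was the steadiest of the members tested. Its single probe set ran from 6.93 over 7.43 to 7.68 in the high group and from 7.34 over 7.52 to 7.75 in the low group. High 5 was the lowest of the 12 sows and low 3 the highest, and the groups overlapped. The means were 7.39 ± 0.26 and 7.52 ± 0.14 in the high and low groups, a difference of -0.13 with an interval from -0.41 to 0.14 (limma adjusted p = 0.935). On the fold scale that interval spans 0.753 to 1.10. Without high 5 the difference was -0.04, and with the actin difference as a covariate it was -0.03. It was -0.19 without high 3 and -0.21 with albumin as a covariate. The SD over all sows was 0.214, under the median of 0.287 among tested probe sets.

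ACVR1, a type I receptor used by BMP6, BMP7 and, with its own type II receptor, by anti-Müllerian hormone, was read by a pair of probe sets, called A1 and S1 after their names. A1 ran from 9.33 over 9.83 to 10.39 in the high group and from 9.10 over 9.67 to 9.90 in the low group. High 1, high 2 and high 3 exceeded every low-group sow, while the other 3 sows of the high group lay within the low range. The means were 9.86 ± 0.41 and 9.63 ± 0.29, a difference of 0.23 (-0.20 to 0.65, limma adjusted p = 0.931). That difference was 0.12 without high 1, 0.12 without low 2, 0.10 without high 2 and high 3, and 0.04 with array weights. It was 0.33 without high 4 and 0.33 with the actin difference as a covariate. S1 of ACVR1 averaged 7.35 ± 0.47 in the high group and 7.24 ± 0.23 in the low group, a difference of 0.11 (-0.32 to 0.55, limma adjusted p = 0.981). Its highest sow was high 2 at 8.06, and the difference was -0.03 without that sow. The pair correlated at r = 0.763.

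ACVR2A and ACVR2B, type II receptors shared by activins and several BMPs, stayed under 4 in all sows and were not tested. The brighter ACVR2A probe set averaged 3.85 ± 0.020 in the high group and 3.87 ± 0.029 in the low group, and the dimmer one 2.28 ± 0.020 and 2.29 ± 0.034. ACVR2B averaged 2.23 ± 0.039 in the high group and 2.21 ± 0.017 in the low group. Dim signals are compressed by GCRMA, so these narrow spreads give no measured level, and they do not show that the transcripts were absent.

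GDF9, the oocyte factor needed for follicles to grow past the primary stage in mice, was measured close to the filter level of 4 in most sows. Its probe set ran from 3.80 over 4.25 to 5.46 in the high group and from 3.96 over 4.31 to 4.58 in the low group, and 9 of the 12 sows exceeded 4. High 3 and high 1 stood above every low-group sow, at 5.46 and 4.76, and high 5 and high 2 below all of them. The means were 4.40 ± 0.62 in the high group and 4.26 ± 0.23 in the low group, a difference of 0.14 (-0.40 to 0.69, limma adjusted p = 0.980). Without high 3 the difference was -0.07. BMP15, the X-linked partner of GDF9 in the oocyte, averaged 2.0 ± 0.014 in the high group and 2.0 ± 0.018 in the low group and was not tested.

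**Figure D3:**
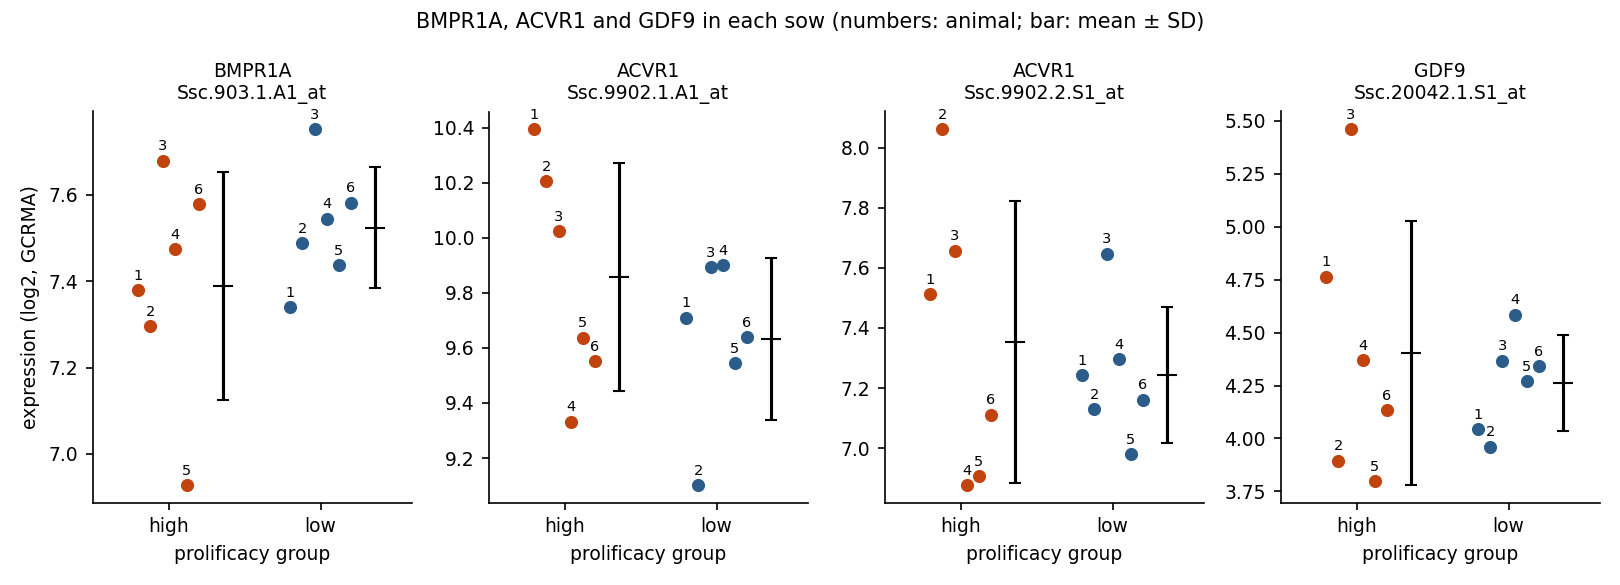
Log2 expression of BMPR1A, ACVR1 and GDF9 (vertical axis, a separate scale in each panel) in each sow of the high and low prolificacy groups; points carry the animal number and bars are the mean ± SD (n = 6 each). The groups overlap in every panel, and high 3 at 5.46 is the highest GDF9 value.

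The members were then set against each other and against marker scores of ovarian cell types. A score is the mean over measured markers of the log2 value minus its mean over the sows, and members used their brightest probe set. Of 38 relations, 6 between members and 32 with scores, 5 passed an adjusted p of 0.05 by Pearson's r and 0 by Spearman's rho. The unadjusted permutation p was under 0.05 in 19 by r and in 13 by rho. All 5 involved BMPR1B or GDF9. The labels give no batch, so the relations were checked within the prolificacy groups.

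BMPR1B was higher in sows with higher luteal markers, and it also ran with endothelial markers. Its r with the luteal score was 0.789 (permutation p = 0.00048, adjusted p = 0.0182) and its rho 0.769 (permutation p = 0.00488, adjusted p = 0.0531). Without high 3 and high 4, the sows farthest from the median score, r was 0.661, and it was 0.810 within the high group and 0.846 within the low group. All 7 luteal markers ran the same way, from r = 0.539 for relaxin, RLN2, to 0.913 for FDX1, the electron carrier of CYP11A1. The score itself ran from -0.61 to 0.36 in the high group and from -0.10 to 0.19 in the low group, a narrower range than that of BMPR1B. Within the high group these values rest on clusters of 3 sows. With the endothelial score BMPR1B had r = 0.661 (permutation p = 0.00885, adjusted p = 0.056) and rho = 0.776 (permutation p = 0.00448, adjusted p = 0.0531), a rho close to the luteal one. Without high 3 and high 5 that r was 0.585, and it was 0.772 within the high group and 0.038 within the low group. Whether the luteal and endothelial relations differ was not tested.

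GDF9 ran the other way. Its r with the luteal score was -0.822 (permutation p = 0.00381, adjusted p = 0.0362) and its rho -0.643 (permutation p = 0.0283, adjusted p = 0.0897), with r = -0.820 without high 3 and high 4. Without high 2 and high 3 that r was -0.606 (permutation adjusted p = 0.177). Within groups r was -0.827 in the high group and -0.735 in the low group. GDF9 and BMPR1B were inversely related, at r = -0.767 (permutation p = 0.00155, adjusted p = 0.0294) and rho = -0.685 (permutation p = 0.0164, adjusted p = 0.0769). Without high 3 and low 4, r was -0.596, and within groups it was -0.782 in the high group and -0.822 in the low group.

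The oocyte score, here ZP4 alone, followed GDF9 and opposed BMPR1B. Its r with GDF9 was 0.745 (permutation p = 0.00276, adjusted p = 0.035) and rho 0.671 (permutation p = 0.0202, adjusted p = 0.0769), with r = 0.652 without high 3 and low 3. Within groups r was 0.907 in the high group and 0.448 in the low group. With BMPR1B its r was -0.770 (permutation p = 0.00515, adjusted p = 0.0391) and rho -0.706 (permutation p = 0.0126, adjusted p = 0.0769), and r was -0.646 without high 3 and low 3. ZP4 ran from 3.14 to 5.68 in the high group and from 3.52 to 5.36 in the low group. Like GDF9 it was thus read close to the filter level of 4 in most sows, and both exceeded every array median in high 3. Without high 2 and high 3, none of the 5 relations kept an adjusted p under 0.05, and r was 0.801 for BMPR1B with the luteal score (adjusted p = 0.0657) and -0.611 for BMPR1B with GDF9 (adjusted p = 0.177). In that set of 10 sows the permutation adjusted p of the other 3 relations ran from 0.130 to 0.177.

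**Figure D4:**
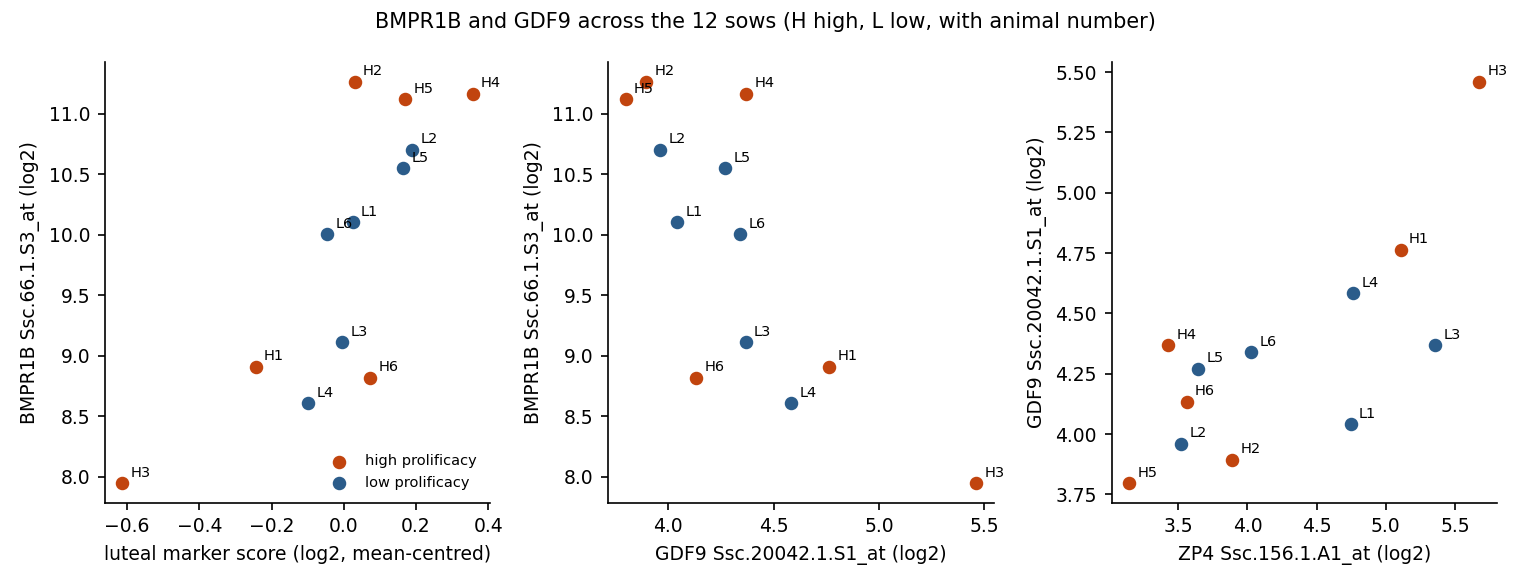
Each point is a sow (H high, L low prolificacy, with animal number). Log2 BMPR1B is plotted against the luteal marker score (left, r = 0.789) and against log2 GDF9 (centre, r = -0.767), and log2 GDF9 against log2 ZP4 (right, r = 0.745); high 3 lies at an end of all 3 plots.

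BMPR1B also ran against markers of follicle cells, smooth muscle and stroma, without passing. The granulosa score, of INHA, INHBA, CYP19A3 and HSD17B1, had r = -0.676 with BMPR1B (permutation p = 0.017, adjusted p = 0.0588), with -0.867 within the high group and -0.071 within the low group. Without high 2 and high 4 that r was -0.471. INHBA alone ran with BMPR1B, at r = 0.635, while INHA, the inhibin alpha subunit, gave -0.605. The theca score, here the Leydig and theca peptide INSL3, gave r = -0.643 (permutation p = 0.0263, adjusted p = 0.0667), and -0.492 without high 3 and low 2. Granulosa scores ran from -2.86 to 2.12 in the high group and from -1.04 to 1.77 in the low group. With that score as a covariate the difference of S3 was -0.28. The smooth muscle score gave r = -0.655 (permutation p = 0.0217, adjusted p = 0.0588), with -0.638 within the high group and -0.711 within the low group, and -0.393 without high 3 and high 4. The stroma score, of the matrix proteoglycans DCN and LUM, gave r = -0.597 (permutation p = 0.0364, adjusted p = 0.0774), and -0.554 without low 2 and low 4. DCN alone gave -0.741, while LUM gave 0.00077.

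The transcripts whose pattern over the 12 sows was most like that of each member are given as a description. Nearest to BMPR1B were ACSL4, an acyl-CoA synthetase that prefers arachidonic acid, at r = 0.941, the magnesium transporter SLC41A1 at 0.939 and the chaperone HSPA13 at 0.930. ACSL4 ran from 12.12 to 13.62 over the sows and SLC41A1 from 4.0 to 7.44. Within groups the r of these 2 genes was 0.894 or higher. Nearest to GDF9 were the nuclear receptor corepressor NCOR1 at 0.961, the peptidase CPQ at 0.923 and the chromatin protein KANSL2 at 0.916, and r for CPQ was 0.397 within the low group. Nearest to BMPR1A were the coactivator NCOA2 at 0.911, the ribonuclease P subunit POP4 at 0.901 and the kinesin light chain KLC4 at 0.870. NCOA2 ran from only 3.85 to 4.74 and POP4 from 3.43 to 4.90, close to the filter level of 4. Nearest to ACVR1 were HACD3, of fatty acid elongation, at 0.890, the chromatin remodelling factor RSF1 at 0.885 and thrombomodulin, THBD, at 0.882. No p is given, since these were picked as the highest of all tested transcripts.

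None of the other pathway genes tested passed, as none of all tested probe sets did. Of 58 genes on 6 lists, 21 had a probe set and 14 were tested, and 0 of the 14 passed the limma adjusted threshold (0% of all), with 0 at an unadjusted p under 0.05 (5.64% of all). The high group mean was the higher in 10 and the lower in 4, where 47.6% of all tested probe sets were higher, with a median difference of 0.04 against -0.01 over all tested probe sets. None of the 12 BMP ligands was tested, since BMP4 and BMP7 missed the filter and the rest had no probe set with that symbol alone.

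Of 11 receptors listed outside the members, all 4 tested had the higher mean in the high group (median 0.12), and every interval included 0. AMHR2, the receptor of anti-Müllerian hormone, averaged 4.40 ± 0.50 in the high group and 4.26 ± 0.37 in the low group, a difference of 0.14 (-0.37 to 0.66). Like GDF9 it read close to the filter level of 4, and with the filter raised to 6 the median of the receptors was 0.10. TGFBR1, the type I receptor through which GDF9 signals, differed by 0.06 (-0.23 to 0.34), the endothelial co-receptor ENG by 0.13 (-0.43 to 0.70) and the activin receptor ACVR1B by 0.10 (-0.30 to 0.50). Of the antagonists, 3 of 13 were tested (median 0.03). Follistatin, FST, which binds activins and BMPs, averaged 9.82 ± 1.01 and 9.94 ± 0.78 in the high and low groups, a difference of -0.11 (-1.13 to 0.91). The related FSTL3 differed by 0.03 and the pseudoreceptor BAMBI by 0.25 (-0.31 to 0.82). With the actin difference as a covariate the median of these 3 antagonists was 0.66, and that of the 4 receptors -0.03. The antagonist median was -0.09 without high 5 and also below 0 without high 3 or low 2.

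Among SMADs, 3 of 10 listed genes were tested (median -0.03, or 0.09 with the actin difference as a covariate). It was 0.02 without high 1 or low 1, and 0.05 with the filter raised to 6, which left out the dim SMAD3. SMAD1, which type I BMP receptors phosphorylate, differed by 0.13 (-0.18 to 0.44), the activin and TGF beta mediator SMAD3 by -0.07 (-0.57 to 0.42) and the common partner SMAD4 by -0.03 (-0.29 to 0.22). BMP response genes had 3 of 11 tested (median 0.02, or 0.29 with the actin difference as a covariate). That median was -0.13 without high 2 and high 3, and it was also below 0 without high 2, high 3, low 1, low 5 or low 6. ID1 averaged 10.08 ± 0.30 in the high group and 10.06 ± 0.35 in the low group, a difference of 0.02 (-0.37 to 0.42), and ID3, like ID1 an inhibitor of helix-loop-helix factors, differed by -0.06 (-0.49 to 0.37). The third of these was BAMBI. Of 5 cumulus genes that respond to GDF9 in mouse, 2 were tested (median 0.19). That median was -0.01 without high 5, -0.04 with the actin difference as a covariate and 0.45 with array weights. PTX3, a cumulus matrix protein, averaged 10.13 ± 0.56 in the high group and 9.77 ± 0.66 in the low group, a difference of 0.36 (-0.34 to 1.06), and TNFAIP6, which crosslinks that matrix, differed by 0.03 (-0.79 to 0.84). Limma adjusted p ran from 0.931 upward over these 14 genes.

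**Figure D5:**
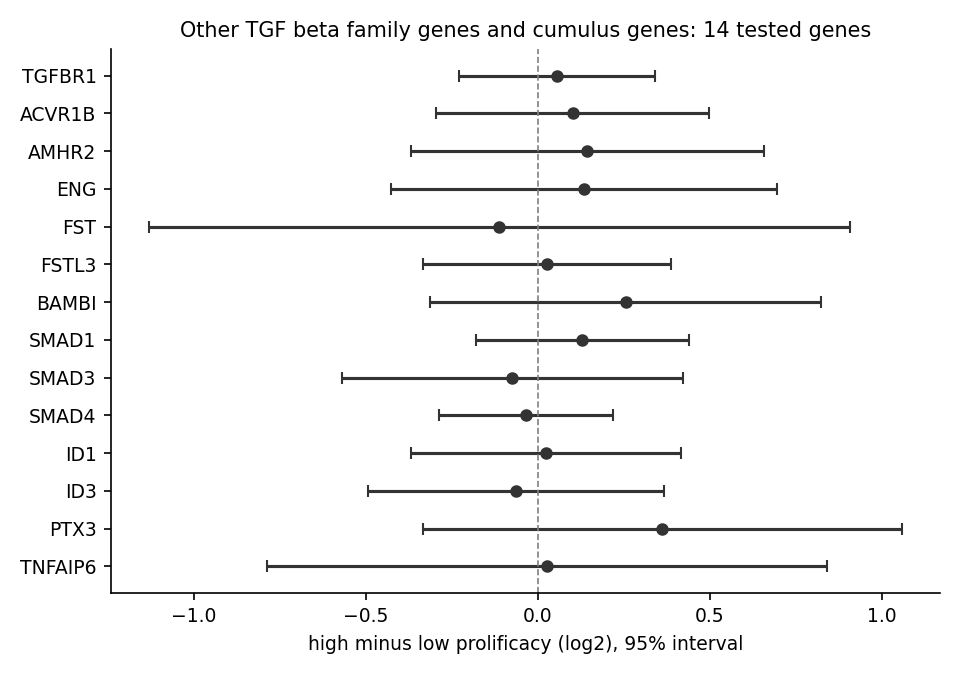
Difference between the high and low groups on the log2 scale (horizontal axis; points, with 95% intervals of limma's fit as bars) for the 14 tested genes of the pathway lists. Every interval includes 0, and FST has the widest.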

How the data were processed

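Ovaries of 12 sows, 6 per prolificacy group, were compared. The deposited table holds log2 values per probe set, made by the authors with GCOS and GCRMA per the submitters' processing notes; no version of either is stated. Values ran from 0.97 to 15.34. Symbols came from the array annotation: 10099 probe sets had 1 symbol, 198 several and 13826 none, and Entrez IDs gave all 11 members the same symbols. The 124 control probe sets were not tested.

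The groups were tested in limma 3.58.1 (lmFit, then eBayes; R 4.3.3), two-sided, with no covariate, over 13390 probe sets above 4 in at least 6 sows. Relations across sows used 100000 two-sided permutations, adjusted over 38 relations. Albumin (ALB) was dropped as an x axis because its values fell into separate clusters, and the actin relation was added after the data were seen. Porcine control names were moved by 21 places within their block of 62, which brought 19 spike controls closest to their own names (mean gap 0.493, against 5.17 as named). Probe sets named are all members, the 3 nearest genes per member and up to 4 genes per list by smallest p. Members, lists and tests were chosen with earlier results of these data known. The fit was tested on simulated data. Animal numbers name different sows, so no pairs were made. Separate sows are the replicates; their relatedness was not examined.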

Additional observations from a re-analysis of the deposited data

Results flagged for a closer look

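The highest or lowest sow stood farther from its nearest neighbour than the 95% limit of Dixon's ratio (0.625 for 6 sows) in 2 of 22 groups examined, and chance gives about 1 in 20. Both were low 5 in probe sets near the floor. The dimmer ACVR2A probe set read 2.36 there, against 2.28 in the next sow, and BMP15 read 2.03, against 2.0. Neither probe set reached 4 in any sow.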

How the results depend on the processing

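No tested member passed the limma adjusted threshold under any of the 12 alternative fits or with any 1 sow left out. Over all probe sets the count was 0 under every one of them, except that it ran from 0 to 1 with 1 sow left out, with 1 reached without low 1. With the animal number as a replicate block it was 0, and 0 members passed. The correlation of same-numbered sows ran from -0.46 to 0.17, and 1 of 6 numbers matched best with its own. The differences that changed sign passed the adjusted threshold under neither setting. With array weights BMPR1B S3 differed by -0.0010, ACVR1 S1 by -0.064 and GDF9 by -0.022. That BMPR1B probe set differed by -0.086 with albumin, -1.30 with the actin difference and -0.28 with the granulosa score as a covariate, and BMPR1B by -0.16 as the mean of its probe sets. Without high 2 and high 3 ACVR1 S1 differed by -0.14. With 1 sow left out BMPR1B ran from -0.25 to 0.41 in S3 and from -0.49 to 0.30 in S2, ACVR1 S1 from -0.030 to 0.21 and GDF9 from -0.069 to 0.26. Of the 38 relations, 13 passed after quantile normalization and 8 with each group centred on its mean, and both counts include the 5 of the main setting. With the mean of all probe sets of a gene 4 passed, and BMPR1B with the oocyte score did not (r = -0.749, permutation adjusted p = 0.0554). Without high 2 and high 3, 0 passed, by permutation over 10 sows, which also means fewer samples. The other causes were not tested.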

Other observations

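Of the 10 granulosa markers with a probe set, 6 missed the filter. The follicle-stimulating hormone receptor FSHR averaged 3.73 ± 0.82 in the high group and 3.87 ± 0.42 in the low group (SD, n = 6 each). INHA ran from 4.15 to 11.43 in the high group and from 6.80 to 11.16 in the low group, and HSD17B1, an enzyme that forms oestradiol, from 5.20 to 12.44 and from 7.67 to 10.75.

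BMPR1A ran against the endothelial score at r = -0.737 (permutation p = 0.0204, adjusted p = 0.0588). Its rho was -0.476 (permutation p = 0.122, adjusted p = 0.201). Without high 3 and high 5, the sows farthest from the median score, r was 0.030, while without high 2 and high 3 it was -0.707. High 5 had the lowest BMPR1A value, 6.93, and the highest endothelial score, 0.68. Against the macrophage score r was -0.686 (permutation p = 0.0113, adjusted p = 0.0588), and -0.192 without high 2 and high 5. Neither relation was seen within the low group, where r was 0.010 with the endothelial and 0.069 with the macrophage score. Within the high group these were -0.868 and -0.908.

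ACVR1 ran against the luteal score at rho = -0.832 (permutation p = 0.00132, adjusted p = 0.0502) and r = -0.671 (permutation p = 0.0167, adjusted p = 0.0588), with r = -0.786 without high 3 and high 4, -0.661 within the high group and -0.826 within the low group. ACVR1 and BMPR1B gave r = -0.437 over all sows (permutation p = 0.158, adjusted p = 0.23). BMPR1A and BMPR1B gave r = -0.627 (permutation p = 0.0208, adjusted p = 0.0588) and rho = -0.650 (permutation p = 0.0249, adjusted p = 0.0862). Within groups that r was -0.689 in the high group and -0.560 in the low group. BMPR1A and GDF9 gave r = 0.567 (permutation p = 0.0682, adjusted p = 0.118). With ACVR1, GDF9 gave r = 0.430 and BMPR1A -0.004.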
